A study of Mus musculus with 7 samples.

Results

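Open-sea intron sites near transcript starts are cytosines that the authors' annotation places in an intron and outside CpG islands and shores (class "other"). They lie less than 10000 bases from the nearest annotated transcript start. They were chosen from the authors' annotation alone, with no methylation value, and numbered 3175 of the 18189 sites (17.5%) in a table of 6 libraries, called the rescue table here. The same rule found 3773 of 21989 sites (17.2%) in a second table of 3 libraries, the knockdown table. The sites of the rescue table lay near 1341 transcript starts, 864 of which had 2 or more sites, and the largest group had 14. Distances ran from 1003 to 9992 bases, with a median of 4059, and 1929 sites (60.8%) lay downstream of their nearest start. That start may belong to another transcript or gene than the intron. By RefSeq gene spans (GRCm38.p6, the mm10 build), 2758 sites lay within 1 gene, 196 within several and 221 within none, which gave 1243 gene symbols.

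All libraries came from J1 mouse embryonic stem cells, a line kept in serum with leukemia inhibitory factor, and DNA methylation was read by double-enzyme reduced representation bisulfite sequencing (RRBS). Wild-type cells and Uhrf1-/- cells, which lack Uhrf1, gave 2 libraries each. Uhrf1-/- cells carrying flag-myc-tagged human wild-type UHRF1 (the wild-type rescue) and Uhrf1-/- cells carrying human UHRF1 with the changes K667R, K668R and K670R (the 3KR rescue) gave 1 library each. Wild-type cells with a stable Mof knockdown gave 1 library. Each rescue was a hygromycin-selected line from a single colony, so a clone and its transgene cannot be told apart. Nothing in the labels says that libraries of a group are from separate cultures, and the spread behind each p-value may therefore be technical.

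RRBS converts unmethylated cytosines with bisulfite, so each read shows whether a cytosine was methylated. After DNA replication the daughter strand lacks methylation, and UHRF1 binds these hemimethylated CpGs and recruits the maintenance methyltransferase DNMT1. MOF is a lysine acetyltransferase, and the K-to-R changes replace lysines, which can be acetylated, by arginines, which cannot. Gene bodies are commonly methylated in mouse cells, whereas CpG-rich starts are commonly free of methylation. Open-sea DNA is the CpG-poor remainder of the genome.

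Sequence is shown for the only 2 sites of the set that fell inside RefSeq promoter windows. The site at a CpG-poor start was methylated in wild type, and the site at a CpG-rich start had no methylated read. Each start is represented by 1 site on few reads, which does not give the methylation of the start as a whole. The site of the CpG-rich start lies after the printed bases. The 250 bases before each RefSeq start are printed 5′ to 3′ on the plus strand of GRCm38.p6, with every CG in capitals, for Gm30785 (chr11:53840009-53840258) and Frrs1 (chr3:116861430-116861679).
Gm30785: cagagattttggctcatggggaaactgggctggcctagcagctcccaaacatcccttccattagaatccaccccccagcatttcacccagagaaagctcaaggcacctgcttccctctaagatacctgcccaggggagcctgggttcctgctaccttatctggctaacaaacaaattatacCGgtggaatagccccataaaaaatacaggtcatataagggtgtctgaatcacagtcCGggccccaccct
Frrs1: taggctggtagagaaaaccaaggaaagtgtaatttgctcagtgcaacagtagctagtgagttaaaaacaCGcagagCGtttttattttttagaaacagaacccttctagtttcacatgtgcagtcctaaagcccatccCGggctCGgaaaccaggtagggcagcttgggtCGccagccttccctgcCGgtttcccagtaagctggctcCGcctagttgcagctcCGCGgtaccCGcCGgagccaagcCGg
The measured sites themselves, with their CG in capitals, have these surroundings.
Gm30785 site: caaacaaattatacCGgtggaatagc
Frrs1 site: tcaaggtaagagccCGttctgttta

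The 250 bases before Gm30785, a predicted gene, hold 2 CG, and 29.0% of 32851 RefSeq windows of that length hold 2 or fewer. The 250 bases before Frrs1, a ferric-chelate reductase-like gene, hold 12 CG, and 33.5% of windows hold 12 or more. The Gm30785 site (chr11:53840191, minus strand, 9858 bases from the nearest start in the authors' annotation) had 5 of 6 and 11 of 19 reads methylated in wild type and 0 of 18 and 2 of 17 in Uhrf1-/-. In the wild-type rescue 1 of 6 reads was methylated, in the 3KR rescue 1 of 9 and in the Mof knockdown 4 of 13. The Frrs1 site (chr3:116861719, plus strand, 2154 bases from the nearest start) had no methylated read in any library, on 8 and 10 reads (wild type), 18 and 6 (Uhrf1-/-), 8 (wild-type rescue), 18 (3KR rescue) and 6 (Mof knockdown). Sites of every class inside RefSeq windows lay at a CG in 559 of 559 cases in the rescue table and 614 of 616 in the knockdown table, so the measured cytosines were nearly all CpGs where this could be read.

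Depth was low at single sites. Median reads per open-sea intron site were 8 and 16 (wild type), 12 and 10 (Uhrf1-/-), 22 (wild-type rescue), 13 (3KR rescue) and 10 (Mof knockdown). Libraries of 1 group differed beyond sampling: a chi-square of their reads averaged 2.89 per degree of freedom in wild type and 2.19 in Uhrf1-/-, where sampling alone gives about 1. The tables share 2082 open-sea intron sites, which is 65.6% of the set in the rescue table and 55.2% in the knockdown table. Wild-type reads were identical at all 2082, so the wild-type libraries are the same in both tables.

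Loss of Uhrf1 was compared with wild type first. Open-sea intron sites near starts were methylated at most reads in wild type and at few in Uhrf1-/-. The mean methylation over the 3175 sites was 61.7% and 63.8% in the wild-type libraries (62.7% ± 1.47, SD, n = 2) and 12.3% and 12.9% in the Uhrf1-/- libraries (12.6% ± 0.485, SD, n = 2). The groups did not overlap, and the difference was -50.1 points, which left 20.1% of the wild-type level. An exact two-sided permutation test over libraries gave p = 0.33, the smallest that 2 against 2 libraries allow. The mean was lower in Uhrf1-/- on each of the 19 autosomes, with differences of -58.1 to -44.3 points.

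Single sites spread widely around these means. The median site was at 71.4% and 75% in wild type and at 0% in both Uhrf1-/- libraries. Sites over 80% methylated made up 39.9% and 43.1% of the set in wild type and 0.315% and 0.472% in Uhrf1-/-. Sites with no methylated read made up 17.3% and 13.0% in wild type and 51.0% and 50.8% in Uhrf1-/-. A site of 10 reads cannot show a low level as different from 0, so these last shares rest on depth as well as on methylation.

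**Figure D1:**
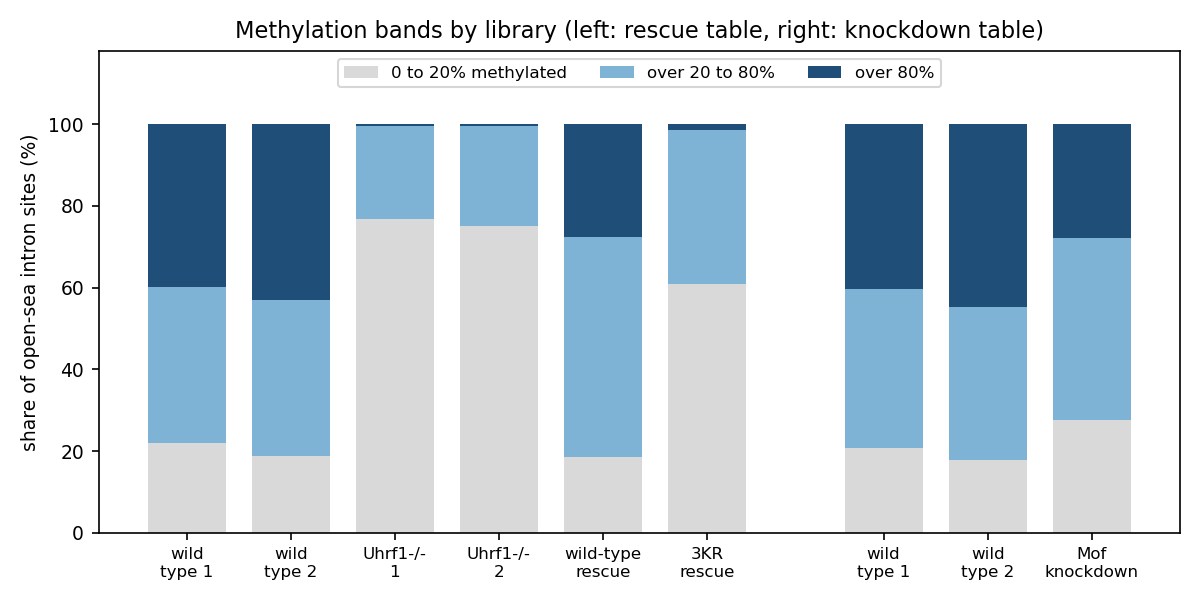
Share of open-sea intron sites near starts (vertical axis, percent) in 3 bands of methylation, for each library of the rescue table (6 bars at left, 3175 sites) and the knockdown table (3 bars at right, 3773 sites). Sites over 80% are 39.9% and 43.1% of the wild-type bars, under 1% of the Uhrf1-/- bars, 27.6% of the wild-type rescue and 1.39% of the 3KR rescue.

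Site by site, edgeR's quasi-likelihood test was fitted over all sites with at least 10 reads in the 4 libraries, with Benjamini-Hochberg adjustment over the whole table. Of the open-sea intron sites, 661 had the reads and 652 were tested, and 312 (47.9%) fell at an adjusted p under 0.05 and by at least 20 points. The share over the whole table was 38.1%. None rose, and at an unadjusted p under 0.05 414 were lower and 1 was higher. With limma in place of edgeR, 366 of the 652 fell and 2 rose, beside 1730 and 3 of 3917 sites over the whole table. The number of single-site calls rested on each library: without Uhrf1-/- library 1 it was 0, without Uhrf1-/- library 2 149, without wild-type library 1 5, and without wild-type library 2 3. By size alone, 533 of the 661 sites were at least 20 points lower in Uhrf1-/- (80.6%, against 54.6% over the whole table) and 2 were at least 20 points higher (against 0.0652%).

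Reads summed per start raised the depth behind each test. A locus here is the group of open-sea intron sites that share their nearest start, and 429 loci with at least 2 sites and 20 reads in every library were tested. Of these, 337 (78.6%) fell, against 63.5% of loci of every class, and 0 rose, also at an unadjusted p under 0.05. With limma, 334 of the 429 fell, beside 1510 of 2446 loci of every class. Without Uhrf1-/- library 1, 183 loci fell. In the authors' deposited table, 2458 of the 3175 sites (77.4%) were listed as lower in Uhrf1-/- at a q-value under 0.05 and by at least 20 points, beside 61.3% of all listed sites, and 15 as higher (against 0.269%).

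The loci with the largest called falls had lost nearly all methylation. They were picked by this difference, so their values are descriptions. At Zfp663, a zinc finger gene (chr2:165365833-165365897, 3 sites), methylation was 100% and 94.4% in wild type, 0% and 3.33% in Uhrf1-/-, and 58.3% and 0% in the wild-type and 3KR rescues. At Ints1, a subunit of the Integrator complex (chr5:139765367-139765476, 3 sites), the values in the same order were 86.7% and 100%, 2.38% and 0%, 73.3%, and 17.4%. At Trpv4, a cation channel gene (chr5:114634414-114634469, 4 sites), they were 88.6% and 93.5%, 0% and 0%, 100%, and 25.2%. These 3 loci were alike in wild type and in Uhrf1-/- and differed in the rescues: the Trpv4 locus was above both wild-type libraries in the wild-type rescue, and the Zfp663 locus was below both. The other 5 lay in Dnah1, an axonemal dynein heavy chain, Clta, a clathrin light chain, Ttc7b, Gtf2ird2 and Trim9, an E3 ubiquitin ligase. Their mean level was between 89.4% and 99.0% in wild type and between 2.33% and 12.8% in Uhrf1-/-.

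Some loci kept methylation without Uhrf1. The highest Uhrf1-/- level was at Kank2, which encodes an ankyrin-repeat adaptor (chr9:21791140-21791289, 3 sites), with 65.0% and 60.3% in wild type and 50.0% and 41.0% in Uhrf1-/-. The 3KR rescue had 16.7% there, below both Uhrf1-/- libraries (Wilson 95% interval of its pooled reads 7.34% to 33.6%), on 30 reads. Crim1, a transmembrane regulator of BMP signals (chr17:78288545-78288596, 5 sites), had 80% and 85.8% in wild type, 54.3% and 33.3% in Uhrf1-/-, and 83.6% and 24.7% in the wild-type and 3KR rescues. So at both loci the 3KR rescue was the lowest library of the 6. All loci named here were picked for a high Uhrf1-/- level. That choice favours other libraries lying below Uhrf1-/- and a small fall from wild type, so the values and p-values are descriptions. Fam83a, with 100% in both wild-type libraries, had 59.0% and 28.3% in Uhrf1-/-. Lactb, a mitochondrial protein gene, had 66.7% and 61.1% in wild type, 32.7% and 33.3% in Uhrf1-/-, and 46.8% and 55.9% in the wild-type and 3KR rescues. Crim1 and Fam83a were called lower in Uhrf1-/- (edgeR adjusted p = 0.0289 and 2.41e-05), and Kank2, Prdm11, Gm17177 and Lactb were not (edgeR adjusted p = 0.860, 0.356, 0.155 and 0.199). At Prdm11 the Uhrf1-/- libraries stood far apart, at 66.7% and 18.2%.

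**Figure D2:**
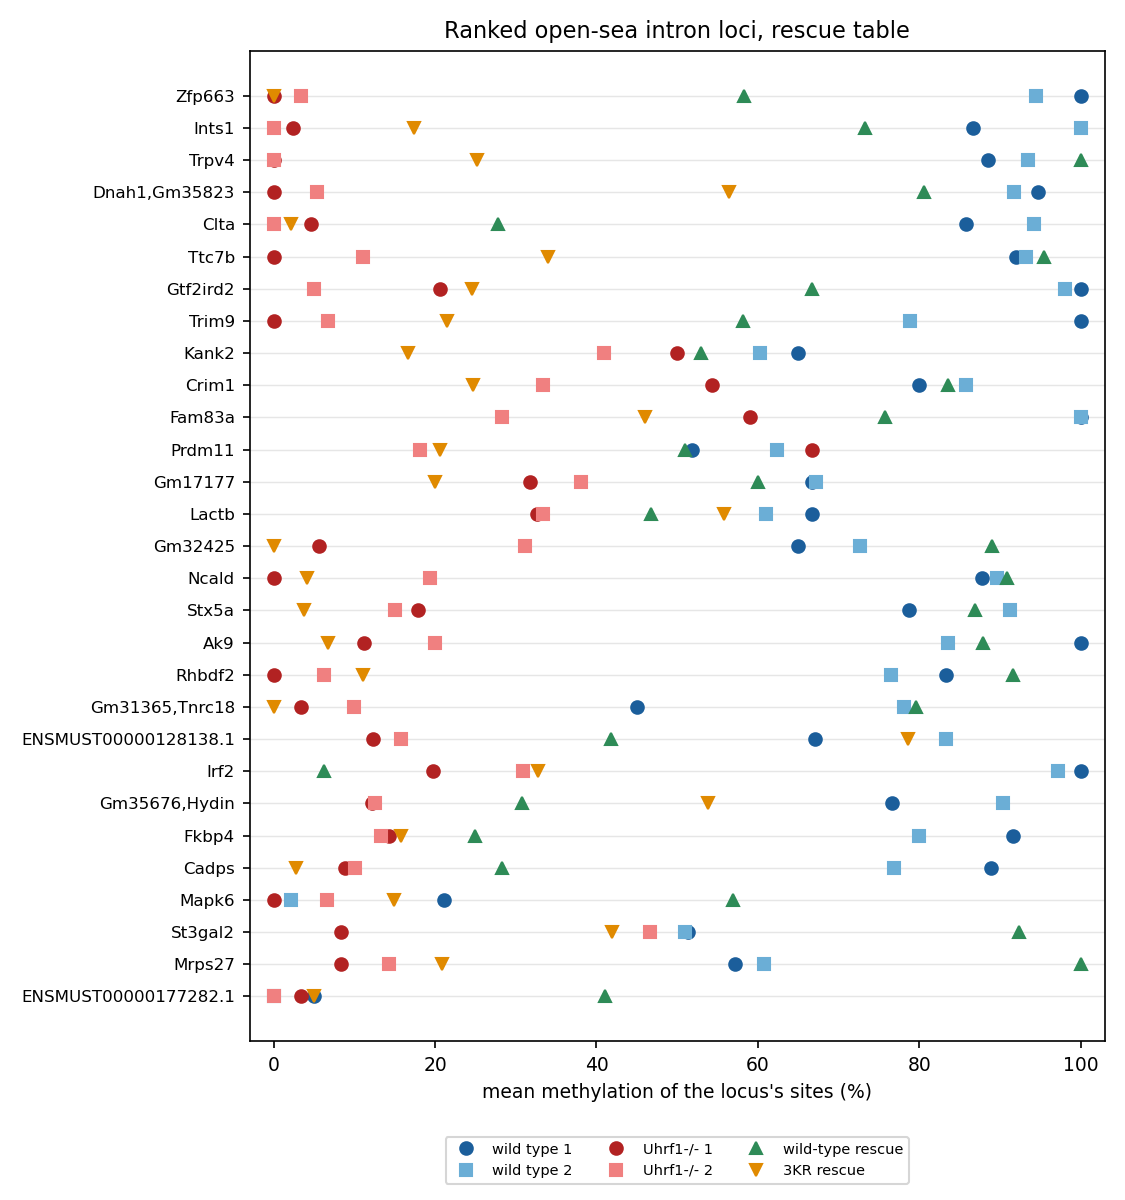
Mean methylation of the sites of each ranked open-sea intron locus (horizontal axis, percent) in the 6 libraries of the rescue table, 1 row per locus named by its host gene or, where RefSeq gives none, its nearest transcript, and 1 marker per library. Points at the same value cover each other. From Zfp663 to Trim9 the wild-type points lie far right of the Uhrf1-/- points, and at Irf2 the wild-type rescue (6.25%) lies left of all others.

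Open-sea intron sites nearer to a start were slightly less methylated than those further away. Open-sea intron sites at 10000 bases or more (2292 sites) had 68.1% and 69.5% in wild type (68.8% ± 0.971, SD, n = 2) and 13.8% and 14.1% in Uhrf1-/- (13.98% ± 0.204, SD, n = 2). The near sites were lower in every library. Near minus far was -6.43 and -5.73 points in wild type, -1.58 and -1.18 in Uhrf1-/-, and -3.74 and -2.62 in the wild-type and 3KR rescues. The gap differed by 4.70 points between wild type and Uhrf1-/- with no overlap of libraries (exact two-sided permutation p = 0.33, the smallest possible). As a ratio, the near sites had 90.6% and 91.8% of the far level in wild type and 88.6% and 91.6% in Uhrf1-/-, which overlap (exact two-sided permutation p = 0.667). The share of the wild-type level left in Uhrf1-/- was 20.1% near and 20.3% far.

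Inside the limit, the mean of the wild-type libraries was 62.0% at 1000 to 2000 bases (538 sites), 60.9% at 4000 to 6000 (740 sites) and 66.4% at 8000 to 10000 (391 sites). Uhrf1-/- had 11.2%, 13.3% and 14.1% in these bins. The 200 sites at 9000 to 10000 bases had 64.6% in wild type and 14.1% in Uhrf1-/-, and the 146 intron sites at 10000 to 11000 had 67.1% and 14.6%. These neighbouring bins differed by about as much as other bins did. In the knockdown table their order was the other way in wild type. There the 253 sites at 9000 to 10000 bases had 69.8% and the 163 at 10000 to 11000 had 63.7%. Upstream sites (1246) had 64.3% in wild type and downstream sites (1929) 61.7%, and 13.1% and 12.3% in Uhrf1-/-. The order was the other way under 3000 bases, with 59.99% upstream (423 sites) and 63.4% downstream (702 sites) in wild type, and in the knockdown table, with 63.1% and 64.4%. No direction held throughout.

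**Figure D3:**
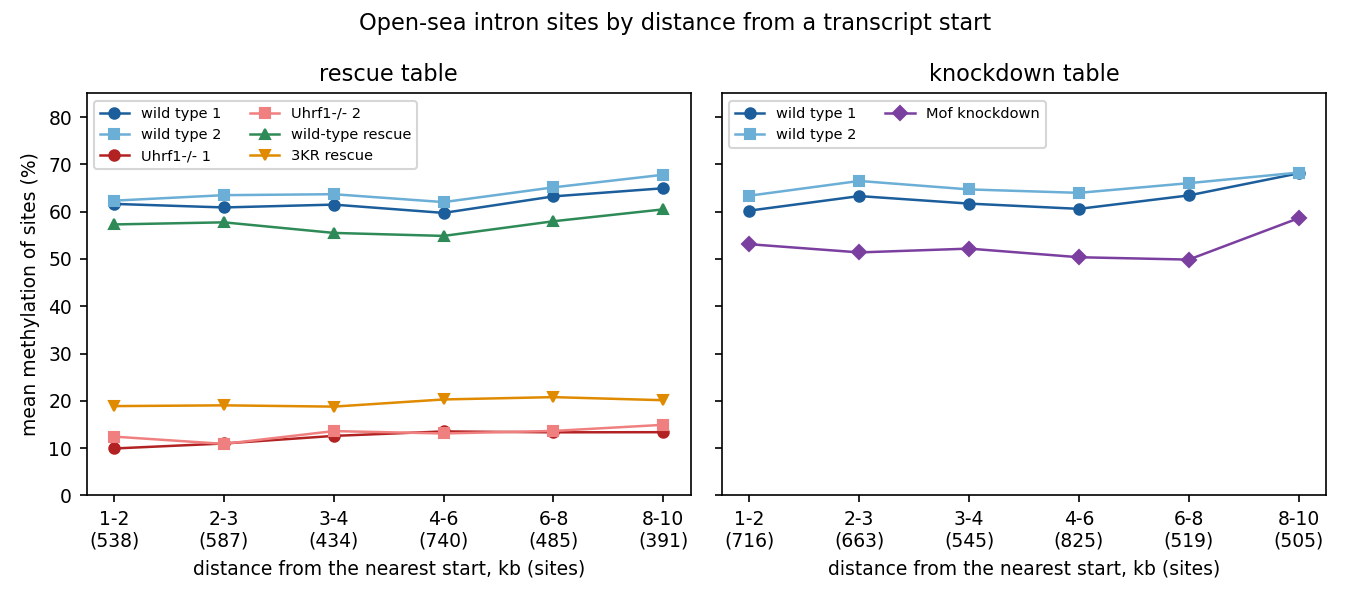
Mean methylation of open-sea intron sites (vertical axis, percent) by distance from the nearest transcript start (horizontal axis, kb, number of sites in brackets), 1 line per library, for the rescue table at left and the knockdown table at right. The wild-type lines stay near 60% to 68%, the wild-type rescue just below them, the 3KR rescue near 20% and the Uhrf1-/- lines lowest, and the Mof knockdown line lies below both wild-type lines in every bin.

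At 49 starts, both open-sea intron sites (119) and promoter sites of any island class (173) were measured. The intron sites had 58.6% and 59.9% in wild type, and the promoter sites of the same starts had 32.9% and 32.2%. In Uhrf1-/- the values were 12.1% and 10.8% for the intron sites and 6.70% and 6.10% for the promoter sites. Intron sites thus stood above promoter sites of the same starts in every library, and both kinds were left with a like share of the wild-type level, 19.3% and 19.7%.

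The wild-type rescue was compared with Uhrf1-/- and with wild type. Sites near starts had 57.1% in the wild-type rescue, 44.5 points above the Uhrf1-/- mean and 5.66 points below the wild-type mean, below both wild-type libraries. The rescue had regained 88.7% of the loss, beside 90.2% over the whole table and 85.4% at far intron sites. It was below the wild-type mean on all 19 autosomes, with differences of -15.8 to -1.69 points. With 1 library there is no spread, and no test was made.

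Counting sites of 10 or more reads in the libraries compared, 1066 of 1333 were at least 20 points above the Uhrf1-/- mean (79.97%, against 61% over the whole table) and 0 were that far below (against 0.122%). Against wild type, 281 of 1148 (24.5%, against 17%) were at least 20 points below and 130 (11.3%, against 8.56%) above. The 2 wild-type libraries differed from each other too: library 2 was at least 20 points below library 1 at 146 of 1231 sites (11.9%, against 9.07%) and above at 227 (18.4%, against 13.3%). Against wild-type library 1 alone the rescue was at least 20 points below at 349 of 1295 sites (26.9%, against 18.7%) and above at 217 (16.8%, against 12.1%). Against library 2 it was below at 631 of 2311 (27.3%, against 22.4%) and above at 277 (11.99%, against 9.87%). The shares are over different sites, since each needed its own reads. In the authors' deposited table, 535 sites (16.9%, against 13.5%) were listed lower than wild type in the wild-type rescue and 244 (7.69%, against 6.54%) higher.

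Levels in the rescues were also read by the level of a site in wild type. Sites were grouped by wild-type library 2, and the other libraries were then read in those groups, so that only library 2 is fixed by the grouping. The 595 sites at 20% or less had 10.3% in wild-type library 1, 3.69% and 4.86% in Uhrf1-/-, and 15.9% and 4.35% in the wild-type and 3KR rescues. The 1369 sites over 80% had 83.5% in wild-type library 1, 16.6% and 17.4% in Uhrf1-/-, and 73.5% and 27.1% in the wild-type and 3KR rescues. The wild-type rescue was thus above wild-type library 1 at the low sites and below it at the high sites. It had 53.9% of all sites in the band of 20% to 80%, where the wild-type libraries had 38.2% and 38.1%. Median reads per site were 22 in the wild-type rescue and 8 and 16 in wild type. The part of depth in these band shares was not tested.

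Per locus, 390 loci had at least 3 sites and at least 20 reads in each library. Uhrf1-/- was below both wild-type libraries at 354 of them (90.8%, against 74.2% of loci of every class) and at least 20 points below at 338 (86.7%, against 66.1%). The wild-type rescue was above both Uhrf1-/- libraries at 376 (96.4%, against 83.4%). It was below both wild-type libraries at 199 (51.0%, against 41.6%) and above both at 99 (25.4%, against 25.9%). Among far open-sea intron loci it was above both at 36 of 288 (12.5%). It was below both at 169 of these far loci (58.7%), a larger share than near starts. Uhrf1-/- was at least 20 points below wild type at 272 of them (94.4%), also a larger share than near starts. These differences between near and far loci were not tested.

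The loci where the wild-type rescue stood furthest below wild type were led by Irf2, an interferon regulatory factor gene (chr8:46779805-46779910, 4 sites). It had 100% and 97.2% in wild type and 19.8% and 31.0% in Uhrf1-/-. Its wild-type rescue level was 6.25% (Wilson 95% interval of its pooled reads 1.73% to 20.1%) and its 3KR rescue level 32.8%. The wild-type rescue was thus below both Uhrf1-/- libraries there. Clta (chr4:44009785-44009832, 4 sites) had 85.8% and 94.3% in wild type and 4.65% and 0% in Uhrf1-/-. Its wild-type rescue level was 27.8% (interval 20.1% to 38.2%) and its 3KR rescue level 2.08%. Fkbp4, an HSP90 co-chaperone gene, had 25% in the wild-type rescue against 91.7% and 80% in wild type. Cadps, a gene of dense-core vesicle release, had 28.3% against 88.9% and 76.9%.

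At other loci the wild-type rescue was above wild type. Mapk6, an atypical MAP kinase gene (chr9:75401927-75402002, 4 sites), had 21.1% and 2.08% in wild type and 0% and 6.63% in Uhrf1-/-. Its wild-type rescue level was 56.9% (interval 48.4% to 65.4%) and its 3KR rescue level 14.9%. St3gal2, a sialyltransferase gene, had 51.4% and 51.0% in wild type and 92.4% in the wild-type rescue, and its Uhrf1-/- libraries stood apart at 8.33% and 46.7%. Mrps27, a mitochondrial ribosomal protein gene, had 57.1% and 60.7% in wild type, and 100% and 20.8% in the wild-type and 3KR rescues. The sites near ENSMUST00000177282.1 on chromosome 1, in no RefSeq gene, had 5.00% and 0% in wild type and 41.1% in the wild-type rescue. Mapk6 and the chromosome 1 locus were thus low in every library but the wild-type rescue. All 4 were chosen for this difference.

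The 3KR rescue was compared with the wild-type rescue and with Uhrf1-/-. Open-sea intron sites near starts had 19.7% in the 3KR rescue, 37.4 points below the wild-type rescue and 7.06 points above the Uhrf1-/- mean. It was above both Uhrf1-/- libraries and had regained 14.1% of the loss, the same share as over the whole table (14.1%). It was below the wild-type rescue on all 19 autosomes, with differences of -45.8 to -29.7 points, and above the Uhrf1-/- mean on all 19, by 3.15 to 15.7 points. Far intron sites had 22.3%, and had regained 15.1%.

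Site by site, 1412 of 1991 were at least 20 points below the wild-type rescue (70.9%, against 57% over the whole table) and 26 at least 20 points above (against 0.966%). Against Uhrf1-/-, 256 of 1161 were at least 20 points above (22.0%, against 15.8%) and 55 below (4.74%, against 2.8%). As a measure of spread, Uhrf1-/- library 2 was at least 20 points above library 1 at 177 of 1516 sites (11.7%, against 8.41%) and below it at 161 (10.6%, against 7.55%). With edgeR and the spread of the replicated groups, no site of the set was called for the 3KR rescue against the wild-type rescue. That fit had a single library on each side. In the authors' deposited table, 2135 sites (67.2%, against 53.5%) were listed lower than wild type in the 3KR rescue and 33 (against 0.935%) higher.

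Per locus, the 3KR rescue was below the wild-type rescue at 371 of 390 (95.1%, against 83.8% of loci of every class) and at least 20 points below at 305 (78.2%, against 60.5%). It was above both Uhrf1-/- libraries at 217 (55.6%, against 47.6%) and below both at 66 (16.9%, against 14.1%). It was at least 20 points above the Uhrf1-/- mean at 65 (16.7%, against 11.5%). The order Uhrf1-/-, 3KR rescue, wild-type rescue from low to high, outside both Uhrf1-/- libraries, held at 203 (52.1%, against 42.6%). At far open-sea intron loci the 3KR rescue was at least 20 points below the wild-type rescue at 236 of 288 (81.9%).

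**Figure D4:**
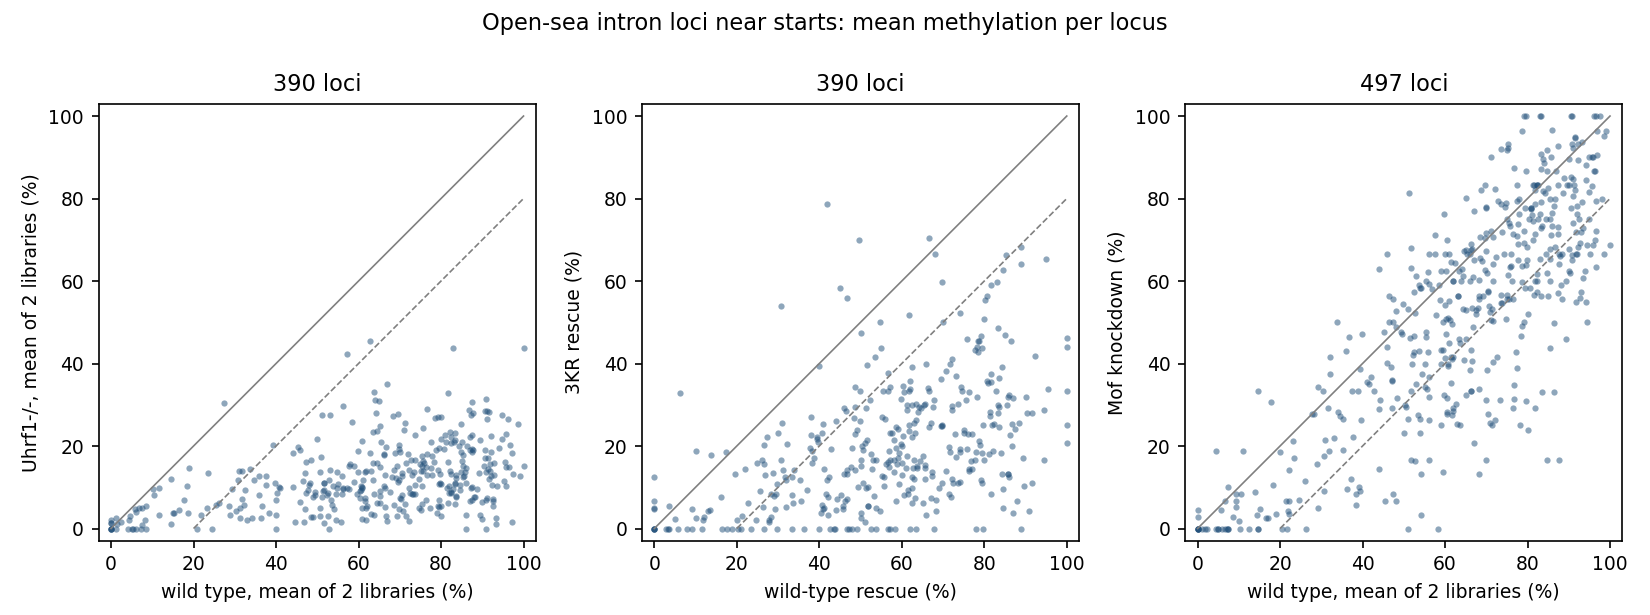
Mean methylation of open-sea intron loci near starts, 1 point per locus (percent on both axes): Uhrf1-/- against wild type (390 loci), 3KR rescue against wild-type rescue (390 loci), and Mof knockdown against wild type (497 loci). The solid line marks equal levels and the dashed line 20 points lower: 338, 305 and 140 loci lie on or under the dashed line.

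The loci with the 3KR rescue furthest below the wild-type rescue were at or near 0% in the 3KR rescue. Ncald, a neuronal calcium sensor gene (chr15:37570417-37570498, 6 sites), had 87.8% and 89.6% in wild type, 0% and 19.4% in Uhrf1-/-, and 90.9% and 4.17% in the wild-type and 3KR rescues. The predicted gene Gm32425 (chr6:82698236-82698287, 4 sites) had 65.0% and 72.7%, 5.56% and 31.1%, 89.0%, and 0% of 32 reads in the same order. Stx5a, a SNARE gene of the Golgi (chr19:8746462-8746967, 4 sites), had 86.9% and 3.75% in the wild-type and 3KR rescues, and Ak9, an adenylate kinase gene, had 87.9% and 6.67%. Rhbdf2, an inactive rhomboid gene, had 91.7% and 11.1%, and the locus shared by Gm31365 and Tnrc18 had 79.7% and 0%. Of these 6 loci, 5 were below the Uhrf1-/- mean in the 3KR rescue, and Rhbdf2 was above it. They were ranked on the 3KR rescue value itself, so low values there are favoured by the choice. Over all 390 loci the 3KR rescue was below both Uhrf1-/- libraries at 66 (16.9%, against 14.1% of loci of every class).

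At 3 loci the 3KR rescue stood furthest above the wild-type rescue. The sites near ENSMUST00000128138.1 on chromosome 17 (chr17:13690984-13691129, 5 sites, no RefSeq gene) had 67.1% and 83.3% in wild type, 12.3% and 15.8% in Uhrf1-/-, and 41.8% and 78.7% in the wild-type and 3KR rescues (interval of pooled reads 61.6% to 90.2%). The locus shared by Gm35676 and Hydin, a cilium gene (chr8:110438861-110439001, 5 sites), had 76.7% and 90.4%, 12.1% and 12.5%, 30.7%, and 53.8% (interval 42.3% to 63.6%). The third was Irf2, where both rescues were far below wild type. Among the loci of largest loss, the Dnah1 locus (chr14:31278555-31278609, 3 sites) was also high in the 3KR rescue, at 56.4% with 0% and 5.33% in Uhrf1-/-.

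The Mof knockdown was compared with wild type in the knockdown table, apart from the rescues. The 3773 sites had 62.6% and 65.3% in wild type (63.9% ± 1.92, SD, n = 2) and 52.4% in the Mof knockdown, a difference of -11.6 points, below both wild-type libraries. This was 81.9% of the wild-type level. The knockdown was lower on all 19 autosomes, with differences of -18.3 to -3.30 points. Far intron sites (2756) had 57.7%, a difference of -11.01 points from wild type, and the difference was -11.3 at open-sea exon sites and -10.8 at open-sea promoter sites. Differences between these classes were not tested.

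The Mof knockdown was below both wild-type libraries in every distance bin, with a difference from their mean of -8.69 points at 1000 to 2000 bases and -14.9 at 6000 to 8000. The difference was -7.59 at the 253 sites at 9000 to 10000 bases and -12.4 at the 163 intron sites just beyond the limit. At sites over 80% in wild-type library 2 (1691), wild-type library 1 had 83.2% and the knockdown 73.5%. At sites of 20% or less (669), library 1 had 10.7% and the knockdown 5.89%. At 58 starts with both kinds of site, the knockdown differed from wild type by -16.4 points at 132 intron sites and by -5.83 at 167 promoter sites.

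Site by site, 297 of 980 were at least 20 points below wild type (30.3%, against 21.2% over the whole table) and 46 above (4.69%, against 4.34%). The wild-type libraries bore on this unequally: the knockdown was at least 20 points below library 1 at 319 of 1077 sites (29.6%, against 21.7%) and above at 101 (9.38%, against 7.54%), and below library 2 at 584 of 1699 (34.4%, against 26.7%) and above at 99 (5.83%, against 5.58%). Wild-type library 2 was itself at least 20 points above library 1 at 294 of 1473 sites (19.96%, against 13.9%) and below at 158 (10.7%, against 8.91%). With edgeR and the spread of the wild-type libraries, no site and no locus was called, in the set or in the whole table. That fit had a single knockdown library. In the authors' deposited table, 594 of 3773 sites (15.7%, against 12.3%) were listed lower in the knockdown and 59 (1.56%, against 1.98%) higher.

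Per locus, the knockdown was below both wild-type libraries at 306 of 497 (61.6%, against 52.6% of loci of every class) and above both at 54 (10.9%, against 12.6%). It was at least 20 points below the wild-type mean at 140 (28.2%, against 19.7%) and at least 20 points above at 4 (0.805%, against 1.2%). At far open-sea intron loci it was at least 20 points below at 88 of 346 (25.4%), a smaller share than near starts. The loci furthest below wild type were chosen for that difference, and led by Fbxo17, an F-box gene (chr7:28728907-28729016, 3 sites), with 100% and 75.03% in wild type and 16.7% in the knockdown, and Ccdc43 (chr11:102695427-102695507, 4 sites), with 86.1% and 83.2% and then 16.7%. Casz1, a zinc finger transcription factor gene, had 66.7% and 70.0% in wild type and 13.3% in the knockdown, and Hk2, a hexokinase gene, had 91.7% and 81.2% and then 33.0%. Mtmr4, a lipid phosphatase gene, had no methylated read among 28 in the knockdown, but its wild-type libraries stood apart at 32.9% and 83.4%. The sites near ENSMUST00000136615.1 on chromosome 8 had 80% in both wild-type libraries and 23.8% in the knockdown. Except at Mtmr4, both wild-type libraries were over 60% at these loci.

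The 4 loci furthest above wild type in the knockdown rested on wild-type library 1. Ist1, an ESCRT gene (chr8:109686946-109687014, 4 sites), had 24.2% and 78.6% in wild type and 81.2% in the knockdown, so library 2 was close to the knockdown and library 1 was far below both. Nectin4, a cell adhesion gene, had 66.7% and 91.7% in wild type and 100% in the knockdown. Plxnc1, a semaphorin receptor gene, had 66.7% and 92.5% and then 100%, and Tmem181b-ps had 57.8% and 84.3% and then 90.2%. Wild-type library 1 was the lowest of the 3 libraries at 114 of the 497 loci (22.9%, against 18.9%). Against library 2 alone, the knockdown was less than 10 points higher at each of the 4.

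**Figure D5:**
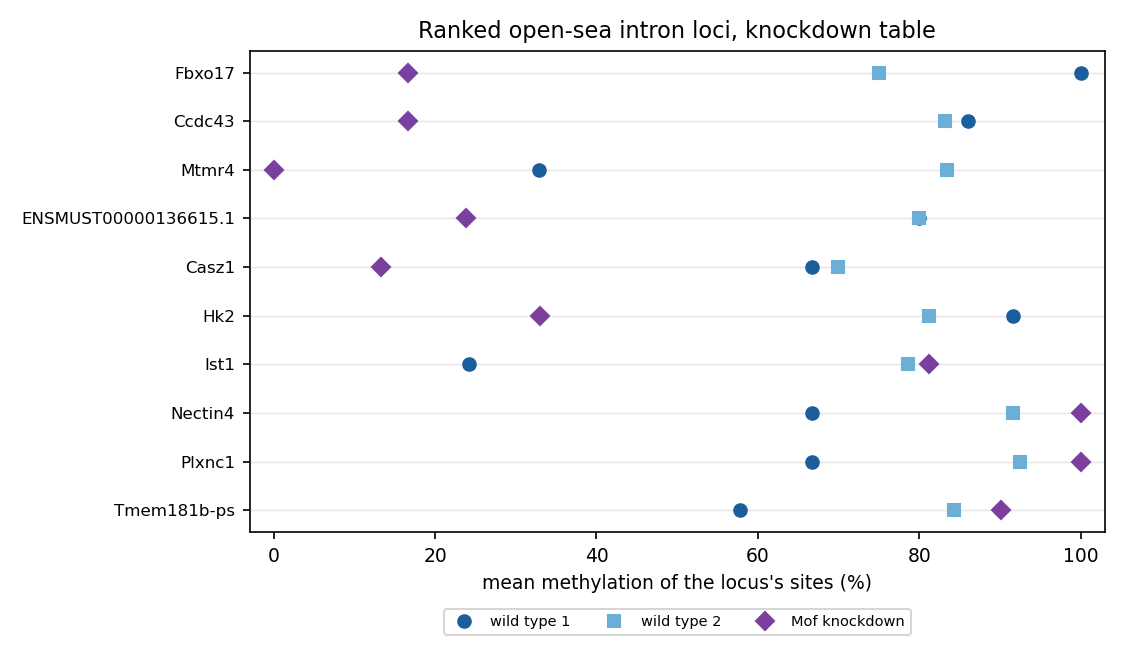
Mean methylation of the sites of each ranked open-sea intron locus (horizontal axis, percent) in wild type (2 libraries) and the Mof knockdown, 1 row per locus named by host gene or nearest transcript, 1 marker per library. From Fbxo17 to Hk2 the knockdown lies left of both wild-type points, and from Ist1 to Tmem181b-ps it lies just right of wild-type library 2.

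At the 2082 shared sites, 582 had at least 10 reads in every library. The 3KR rescue was at least 20 points below the wild-type rescue at 425 of these and the Mof knockdown at least 20 points below wild type at 171. Both held at 143 sites, which is 33.6% of the first list and 83.6% of the second, beside 73.0% of all 582 sites that were in the first and 29.4% that were in the second. The comparisons share no library, but each list can hold only sites of at least 20% in its reference. The part of this in the overlap was not tested. The loci named for Uhrf1 loss differed in the Mof knockdown: Trim9 had 60% there, Ints1 60.8%, Trpv4 66.4%, Clta 67.9% and Ttc7b 69.3%, all below both wild-type libraries. Gtf2ird2 had 96.4%, also below both (100% and 98.1%), and Dnah1 had 93.7%, between them. These loci were picked for a large fall from the same wild-type libraries. That choice favours high wild-type values, and so a knockdown below them. Over all 497 loci the knockdown was below both wild-type libraries at 306 (61.6%). Of the loci with the highest Uhrf1-/- levels, Kank2 had 30.3% and Fam83a 68.8% in the Mof knockdown, below both wild-type libraries. Crim1 had 100%, Prdm11 100% (2 sites) and Gm17177 76.9%, above both.

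The deepest sites lay in Gm33838, a predicted gene on chromosome 9. At chr9:35305434 (plus strand, 2166 bases from the nearest start) the reads were 37 and 176 (wild type), 1990 and 2935 (Uhrf1-/-), 194 (wild-type rescue), 573 (3KR rescue) and 464 (Mof knockdown). The levels were 73.0% and 79.5%, 2.26% and 2.42%, 79.4%, 26.0% and 54.1% in the same order. The neighbouring site at chr9:35305418, in the same reads, had 83.3% and 87.5%, 8.34% and 8.76%, 81.9%, 58.0% and 89.0%. Sites 16 bases apart thus differed in the 3KR rescue and in the Mof knockdown while they lay closer in the wild-type libraries and the wild-type rescue. The reads of this locus were far more numerous in Uhrf1-/- than in wild type, and the part of read number in these levels was not tested.

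Over the whole set, neighbours on the same strand at most 20 bases apart (658 pairs) differed on average by 20.8 and 18.8 points in wild type, 12.2 and 12.6 in Uhrf1-/-, and 19.5 and 16.4 in the wild-type and 3KR rescues. Pairs 21 to 200 bases apart (1142) differed by 28.3 and 26.4 points in wild type, 13.3 and 13.9 in Uhrf1-/-, and 24.8 and 17.9 in the wild-type and 3KR rescues. Of these 2 kinds of pair, the closer one was more alike in every library, and such sites share reads. Only 12 pairs were further apart, up to 2000 bases, and they differed by less than the closest pairs in Uhrf1-/- library 2 (10.3 points) and the 3KR rescue (7.15) and by more in the other 4 libraries.

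Lists of known genes met the set rarely. Of 25 pluripotency, 26 methylation-machinery and 28 lineage-factor genes, 0 had an open-sea intron site near a start in the rescue table. Of 30 germline genes 4 had one, of 28 imprinted genes 2, of 32 developmental signaling genes 1 and of 15 housekeeping genes 2. Only 1 of these sites had at least 10 reads in every library: the Kcnq1 site at chr7:143340092, in the potassium channel gene of an imprinted domain. It had 84.6% and 75% in wild type, 13.3% and 0% in Uhrf1-/-, and 55.1% and 9.09% in the wild-type and 3KR rescues, and it fell in Uhrf1-/- (edgeR adjusted p = 0.0367). Kcnq1 had 2 sites in the set, and the other had fewer reads. The mean over both was 92.3% and 87.5% in wild type and 37.9% and 0% in Uhrf1-/-. In the wild-type and 3KR rescues it was 65.8% and 19.5%.

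The other list sites had fewer reads in at least 1 library and are given as values. At Fgfr2, a fibroblast growth factor receptor gene (3 sites), methylation was 100% and 89.8% in wild type, 20% and 0% in Uhrf1-/-, and 100% and 73.3% in the wild-type and 3KR rescues. Tdrd9, a germline helicase gene of the piRNA pathway (2 sites), had 100% and 89.3%, 21.4% and 8.33%, 95.5%, and 3.33% in the same order. Grb10, an imprinted growth regulator (2 sites), had 100% and 71.2%, 5.88% and 12.5%, 61.9%, and 23.8%. Wild type and Uhrf1-/- did not overlap at these 3 genes, and the 3KR rescue was high at Fgfr2 and low at Tdrd9 and Grb10. Mov10l1, a germline helicase gene, had 100% in both wild-type libraries, 0% in both Uhrf1-/- libraries, and 100% and 31.6% in the wild-type and 3KR rescues at 1 site. Tuba3a, a tubulin gene (1 site), had 100% and 66.7%, 23.1% and 0%, 100%, and 10.5%. The housekeeping genes had 1 site each: Polr2a, a subunit gene of RNA polymerase II, had 100% in both wild-type libraries, 33.3% and 4% in Uhrf1-/-, and 76% and 0% in the wild-type and 3KR rescues. Gusb, a lysosomal enzyme gene, had 100% and 50%, 25% and 0%, 80%, and 28.6%. Wild type and Uhrf1-/- did not overlap at these 4 genes either. Stra8, a gene of meiotic entry (1 site), was mixed in wild type, with 33.3% and 66.7%, and had 28.6% in both Uhrf1-/- libraries, and 50% and 33.3% in the wild-type and 3KR rescues.

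Of the list genes, 7 had sites in the knockdown table, on 8 to 40 reads per gene in the Mof knockdown. Kcnq1 (2 sites) had 92.3% and 87.5% in wild type and 50% in the knockdown. Mov10l1 (2 sites) had 100% and 87.5% and then 66.7%, and Acvr1b, an activin receptor gene (1 site), had 100% in both wild-type libraries and then 75%. These 3 were below both wild-type libraries. Tdrd9 had 90.0% and the imprinted gene Gnas (2 sites) 50%, each between its wild-type libraries (100% and 89.3%, and 90% and 45.9%). Stra8 had 75%, above both. The pluripotency gene Sall4 had 1 site, with no methylated read in any library (5, 5 and 8 reads).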

How the data were processed

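The authors deposited 2 tables with, per the file headers, counts of total, methylated and unmethylated reads per cytosine, the fraction methylated, and p-values and q-values against wild type for each group. The build mm10 and the tools BSMAP 2.73, Trim Galore and cutadapt come from the submitters' processing notes. Step order, methylation caller and test: not given in the sources used here. No library had under 5 reads at a listed site.

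Groups came from sample titles. Levels are unweighted means of site percentages (methylated over total counts); deposited fractions were not used. Intervals are Wilson at 95% on pooled reads and cover counting error only. Tests used edgeR 4.0.16 (R 4.3.3) on methylated and unmethylated counts over all sites of the table. As an alternative, limma 3.58.1 was fitted to percentages weighted by coverage. Only the edgeR site test of Uhrf1-/- against wild type was also run on simulated reads. The simulated spread was fixed and not taken from these libraries, so that run cannot show how reliable the calls are here. Python 3.11.15 with pandas 2.3.3 and scipy 1.17.1 did the rest. A call needed an adjusted p under 0.05 and 20 points. Single-library groups were compared by size, 20 points with at least 10 reads.

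Named loci had at least 3 sites and 20 reads in each library, ranked on the difference they illustrate: the 8 largest called falls in Uhrf1-/-, the 6 highest Uhrf1-/- levels, the 6 furthest below and 3 above in the 3KR rescue against the wild-type rescue, the 4 furthest each way in the wild-type rescue, and the 6 below and 4 above in the Mof knockdown. Gene list sites were added. The members and lists were chosen with earlier results of these data known. Replicate numbers were not taken as pairs. Deviations of wild-type library 1 and Uhrf1-/- library 1 did not correlate (r = 0.01, over 3175 sites). With few reads per site this cannot exclude a pairing, and the closing section gives counts with replicate number as a block. Alternatives covered read minimums, the distance limit, pooled reads, other tests and each library left out.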

Additional observations from a re-analysis of the deposited data

How the results depend on the processing

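Of 122 values under alternatives, 93 were labelled as close to the main value and 29 as moved. No difference between levels changed sign. Counts of calls and shares of sites were labelled by size alone, so a change of direction was not tested there. Their margin was wide. At 40 points in place of 20, sites with the wild-type rescue above Uhrf1-/- went from 79.97% to 62.3%, labelled close. Sites with the 3KR rescue below the wild-type rescue went from 70.9% to 49.0%, also labelled close. Pooling reads gave a wild-type rescue 45.5 points above Uhrf1-/-, and a 3KR rescue 36.9 points lower (-36.9) than the wild-type rescue and 8.58 above Uhrf1-/-, with 16.8% of the loss regained. Without sites of over 500 reads, an alternative chosen after seeing the data, the pooled 3KR rescue was 6.72 above Uhrf1-/-. With at least 10 reads in every library it was 7.79 above, with 15.3% regained. The near minus far difference in wild type was -5.48 with a limit of 5000 bases and -4.88 with loci averaged first, and its change in Uhrf1-/- 3.53 and 3.89. The sites called numbered 930 with at least 5 reads, 11 with at least 20, 100 with the replicate block, and 0 to 149 with 1 library left out. The block was fitted for the site and locus counts only, and left 336 loci. The loci called numbered 615 with at least 10 reads, 75 with at least 40, and 183 to 366 with 1 library left out. The share of sites on which the wild-type rescue lay at least 20 points under wild type was 14.2% with at least 20 reads, 6.71% at 40 points and 14.4% by Fisher's exact test. Sites higher in the 3KR rescue than in Uhrf1-/- were 7.06% at 40 points and 8.10% by Fisher's test. Sites lower in the Mof knockdown were 10.4% at 40 points and 12.2% by Fisher's test. edgeR with a borrowed spread called 0 for the 3KR rescue against the wild-type rescue and 0 for the Mof knockdown. Fewer reads and fewer libraries lower the number tested or the power by construction; otherwise the cause was not tested.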
